A study of Mus musculus with 9 samples.

Results

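Phosphoinositide 3-kinase (PI3 kinase) genes and lipid phosphatase genes were followed through an RNA immunoprecipitation (IP) of Roquin. The 8 genes Pik3ca, Pik3cb, Pik3cd, Pik3cg, Pik3r1, Pik3r5, Pik3ap1 and Inpp5d were taken by their symbols from the 20467 genes of the deposited count table. They were selected on their read counts in these same libraries, so their levels and fold changes are given as a description, with intervals and without a p of their own. Of the 8, 4 encode catalytic subunits, 2 encode regulatory subunits (1 of class IA and 1 of class IB), 1 encodes an adaptor and 1 encodes a lipid phosphatase. All 8 passed the filter on low counts, which kept 9567 genes.

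The cells were RAW264.7, an established mouse macrophage line, and all 9 libraries came from cells given lipopolysaccharide (LPS, a bacterial cell wall component) at 100 ng/ml for 2 h. There were 3 libraries of RNA recovered with rabbit polyclonal antibodies to Roquin (Roquin IP), 3 recovered with the protein A/G beads in the absence of antibody (control IP), and 3 of lysate RNA taken ahead of the IP (input). The replicates are stated to be biological, without saying how cultures were separated, and no untreated cells and no non-immune antibody are among the libraries analysed here. Library totals ran from 1799390 to 12975767 reads, and 1 CPM (reads scaled to a common library size) stood for 2.02 to 11.6 reads. Tnf, the transcript of tumour necrosis factor, took 17.6 to 27.2% of the reads of the Roquin IP libraries and 0.143 to 0.516% of those of the others. For this reason CPM were computed on library sizes scaled by the trimmed mean of M-values (TMM). Of 10 macrophage markers, 8 were in the table and none of these was at 0; their summed level was 832 to 1232 CPM of all reads (unscaled) for the Roquin IP libraries, while control IP libraries had 1106 to 1871 and input libraries 1365 to 2114. The T cell genes Cd3e, Cd3g, Cd4 and Cd8a and the B cell genes Ms4a1 and Pax5 had 0 reads in all 9 libraries. In bulk RNA of this kind, fewer cells and less RNA per cell cannot be told apart. The IP libraries hold RNA recovered from lysate, so their marker sums measure neither.

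PI3 kinases phosphorylate the membrane lipid PIP2 to PIP3, which recruits Akt, Btk and other proteins to the membrane. Class IA enzymes pair a catalytic subunit (p110 alpha, beta or delta, from Pik3ca, Pik3cb and Pik3cd) with a regulatory subunit such as p85 alpha from Pik3r1, and the class IB enzyme pairs p110 gamma (Pik3cg) with p101 (Pik3r5) or a related subunit. Pik3ap1 encodes BCAP, an adaptor that links receptors, Toll-like receptors included, to PI3 kinase, and Inpp5d encodes SHIP1, the phosphatase of blood cells that removes a phosphate from PIP3. Roquin is an RNA-binding protein that recognises short stem-loops in the 3' UTR of messenger RNAs, among them the constitutive decay element (CDE) of Tnf, and recruits the deadenylase complex that starts their decay.

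In the authors' deposited table all 8 genes carried the class "no CDE", as did 20279 of the 20467 genes. The 3' UTRs were searched again in the GENCODE M21 annotation of GRCm38 (no source used here gives the build behind the deposited counts). The CDE core was taken as TTCNNNGAA on the transcript strand, with a loop of pyrimidine, purine, pyrimidine. None of the 8 genes held it in any annotated 3' UTR, against 6.35% of the tested genes with a 3' UTR. A strict form, with 2 further base pairs below the core, was in 1.45% of those genes and in none of the 8. A looser search for any 6 Watson-Crick pairs around a loop of pyrimidine, purine and any base found such a stem-loop in the longest 3' UTR of 19.0% of tested genes, and in 2 of the 8, Pik3ca and Pik3cb. The sequences below are the Tnf element, then that match in Pik3ca, a match of the same kind in the coding sequence of Pik3cb, and the windows of the 3 sister genes that align best with the Pik3cb match; capitals mark the 15 bases of stem and loop.
Tnf 3' UTR: agacatGTTTTCTGTGAAAACggagct
Pik3ca 3' UTR: tgacttATTTCCTAGGGAAATtctggg
Pik3cb coding: tgtgctGGCTACTGTGTAGCCtcttat
Pik3cd coding: tgtgctGGCTACTGTGTGGCCacatat
Pik3cg coding: tgtgcaGGCTACTGTGTGGCCacattt
Pik3ca coding: tgcgctGGGTACTGCGTGGCAaccttt

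In GRCm38 the capitals lie at chr17:35199585-35199599 on the minus strand for Tnf, in the 3' UTR of its exon 4 of 4. The Pik3ca 3' UTR match is at chr3:32463542-32463556 on the plus strand, in exon 20 of 20. The Pik3cb match is at chr9:99044808-99044822 on the minus strand, in exon 21 of 24, and ends 480 bases before the end of the coding sequence. The aligned windows are at chr4:149652674-149652688 (minus strand, exon 21 of 24) for Pik3cd, chr12:32193657-32193671 (minus strand, exon 9 of 11) for Pik3cg and chr3:32461520-32461534 (plus strand, exon 18 of 20) for Pik3ca. They end 480, 495 and 486 bases before the end of coding. Counted from 1 at the first capital of Pik3cb, both Pik3cd and Pik3cg carry the single change A12G, which leaves 5 Watson-Crick pairs and 1 G-T pair in the stem. The Pik3ca window carries C3G, T9C, A12G and C15A and keeps 3 Watson-Crick pairs and 1 G-T pair. These are matches of letters, not measured binding sites. The 6-pair matches in the 3' UTR of Pik3cb and in the coding sequence of Pik3r5, described further below, are not printed here.

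The transcripts of Pik3ca, Pik3cb and Pik3r1 were higher in Roquin IP than in both control IP and input, while those of Pik3cd, Pik3cg, Pik3r5, Pik3ap1 and Inpp5d were not called in either direction. A call is an adjusted p under 0.05 in edgeR's quasi-likelihood test with Benjamini-Hochberg adjustment over the 9567 genes. Against control IP, 3 of the 8 were called higher and 0 lower. Over all tested genes 3.76% were called higher and 0% lower; the 0 stands against 204 genes lower at an unadjusted p under 0.05 and 5 by DESeq2, and scaling by library size alone called 3708 lower. Against input, 3 of 8 were called higher, where 5.45% of all genes were, and 0 lower, where 2.79% were. None of the 8 was called between control IP and input, a comparison that called 0.815% of all genes higher and 0.303% lower. For the 3 called genes, and for none of the other 5, every Roquin IP library lay above every control IP library, as it did for 10.7% of all tested genes, and above every input library, as for 16.5%. Since the genes were selected on these counts, nothing is read from their share of calls. The comparisons with Roquin IP share its libraries.

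**Figure D1:**
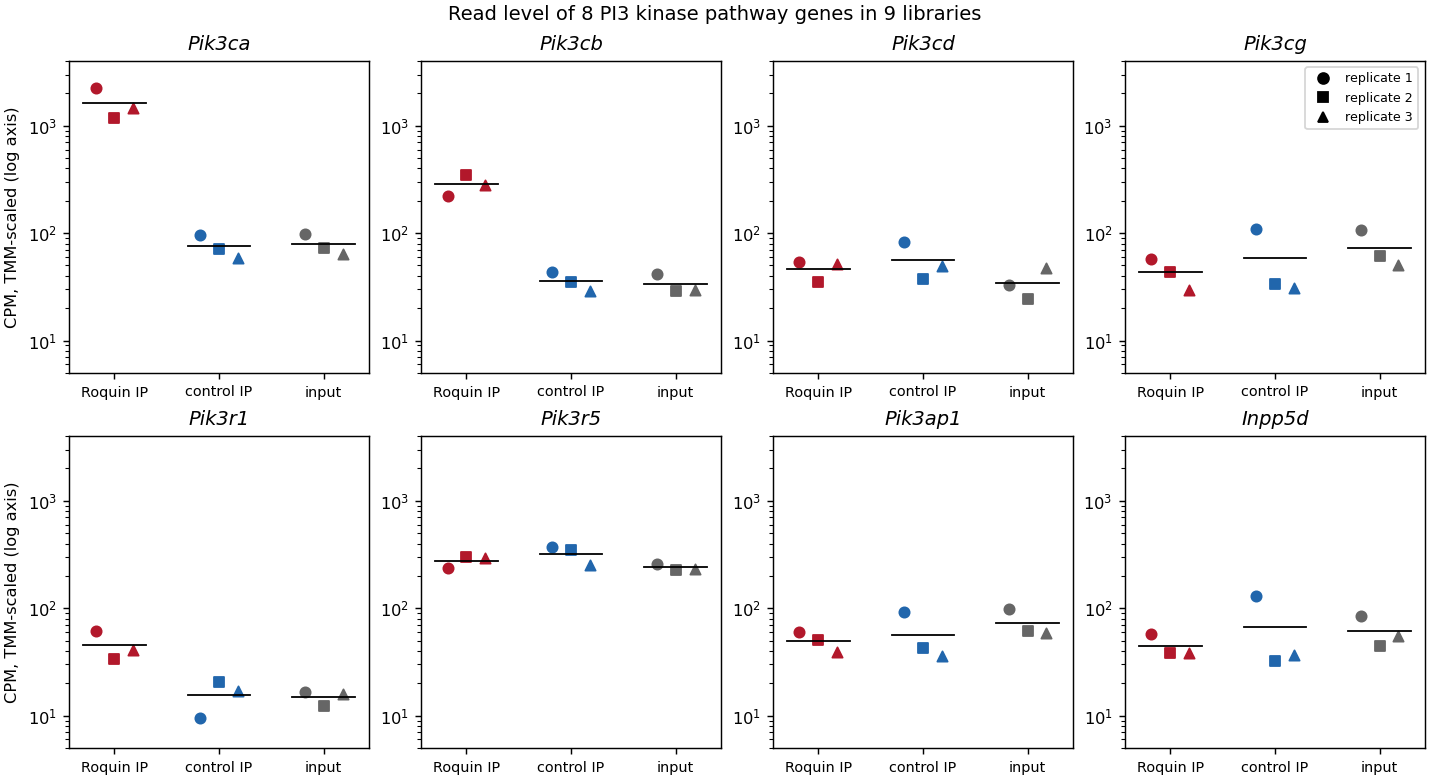
Level in CPM (TMM-scaled, log axis) of the 8 genes in each of the 3 Roquin IP, 3 control IP and 3 input libraries, 1 point per library and a bar at the group mean. The Roquin IP points of Pik3ca, Pik3cb and Pik3r1 lie above all 6 other points of the gene, and those of the other 5 genes overlap at least 1 of the other groups.

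Among the class IA catalytic subunits, Pik3ca, which encodes p110 alpha, the broadly expressed isoform used by growth factor receptors, was the most enriched of the 8. It had 2238, 1170.0 and 1450.1 CPM in Roquin IP replicates 1 to 3, against 96.5, 71.1 and 58.6 CPM in control IP and 98.5, 72.8 and 64.5 CPM in input. All 3 Roquin IP libraries stood far above the 6 others, which lay between 58.6 and 98.5 CPM. The group means were 1619 ± 554, 75.4 ± 19.3 and 78.6 ± 17.8 CPM (SD, n = 3 each). The fold over control IP was 21.5 (95% interval 12.6 to 36.9; log2 4.43, SE 0.36), which ranked 42 among the 9567 genes, and the fold over input was 20.6 (12.01 to 35.3). Control IP and input differed by a log2 of -0.06 (interval -0.75 to 0.62). Within replicate numbers the ratio of Roquin IP to control IP was 23.2, 16.4 and 24.7. Leaving out each library in turn gave log2 values from 4.12 to 4.64.

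Pik3cb encodes p110 beta, the class IA isoform that can also be switched on by G protein-coupled receptors. It had 219.8, 351 and 281 CPM in Roquin IP, 43.2, 35.3 and 29.0 CPM in control IP and 41.9, 28.9 and 29.8 CPM in input. The groups again did not overlap, and replicate 1, which was the highest Roquin IP library for Pik3ca, was the lowest for Pik3cb. The fold over control IP was 7.97 (interval 5.07 to 12.5; log2 2.99, SE 0.30) and over input 8.47 (5.35 to 13.4), with ratios to control IP of 5.08, 9.96 and 9.71 within replicate numbers.

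Pik3cd encodes p110 delta, the isoform found mainly in leukocytes. Its Roquin IP libraries held 54.1, 34.9 and 51.3 CPM, which overlapped the control IP libraries at 82.2, 37.0 and 49.3 CPM. Input held 32.6, 24.1 and 47.1 CPM. The log2 change over control IP was -0.26 (interval -1.02 to 0.50) and over input 0.43 (-0.34 to 1.21), so changes of the size seen for Pik3ca or Pik3cb lay outside both intervals.

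Pik3r1, the class IA regulatory subunit that stabilises the catalytic subunits and holds them inactive until a receptor is engaged, was the least abundant of the 8 in control IP and input. It had 61.2, 33.5 and 41.2 CPM in Roquin IP against 9.44, 20.4 and 16.9 CPM in control IP, where replicate 1 rested on 31 reads, and 16.7, 12.3 and 15.9 CPM in input. The groups did not overlap, but the lowest Roquin IP library stood 1.64 times above its same-numbered control. The fold was 2.86 over control IP (interval 1.68 to 4.89; log2 1.52, SE 0.36) and 3.01 over input (1.73 to 5.24). The call over control IP was lost without replicate 1 or 3 of Roquin IP (log2 1.25 and 1.58) and without replicate 1 or 3 of control IP (1.27 and 1.58). The call over input was lost without Roquin IP replicate 1 (1.33) or input replicate 2 (1.47). Scaling by library size alone also ended both calls (0.67 and 0.85).

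Neither gene of the class IB pair was called. Pik3r5, whose product p101 ties p110 gamma to G protein subunits, had 234.5, 298 and 294 CPM in Roquin IP, 369, 346 and 254 CPM in control IP, and 256, 229 and 234.1 CPM in input. Its Roquin IP range overlapped those of both other groups, and its log2 changes were -0.23 over control IP (interval -0.77 to 0.32) and 0.20 over input (-0.35 to 0.75). Pik3cg, the p110 gamma subunit of leukocytes, had 57.0, 43.6 and 29.3 CPM in Roquin IP, 109.9, 33.5 and 30.8 CPM in control IP and 107.1, 61.3 and 50.6 CPM in input. Replicate 1 was the highest library of Pik3cg in all 3 groups. The log2 change was -0.42 over control IP (-1.43 to 0.58) and -0.77 over input (-1.78 to 0.25), and the ratio to same-numbered input was under 1 in all 3 replicates, at 0.533, 0.712 and 0.580.

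The adaptor gene Pik3ap1 had 60.4, 50.4 and 39.2 CPM in Roquin IP, 92.0, 42.3 and 35.8 CPM in control IP and 99.4, 60.9 and 59.0 CPM in input. The groups overlapped, with log2 changes of -0.18 over control IP (interval -0.97 to 0.62) and -0.56 over input (-1.36 to 0.25). Inpp5d, the SHIP1 phosphatase gene, had 57.0, 37.9 and 37.9 CPM in Roquin IP, 130.3, 32.1 and 36.4 CPM in control IP and 84.3, 44.3 and 54.6 CPM in input. Its log2 changes were -0.58 over control IP (-1.59 to 0.43) and -0.47 over input (-1.49 to 0.54). Control IP replicate 1 held the highest control value of Pik3cd, Pik3cg, Pik3ap1 and Inpp5d. It did so for Pik3ca, Pik3cb and Pik3r5 too, and held the lowest of Pik3r1. Without that library the log2 changes over control IP of Pik3cd, Pik3cg, Pik3ap1 and Inpp5d were 0.11, 0.42, 0.35 and 0.36, above 0 and still uncalled. The intervals show that a moderate change in either direction was not detectable for these genes with 3 libraries a group.

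**Figure D2:**
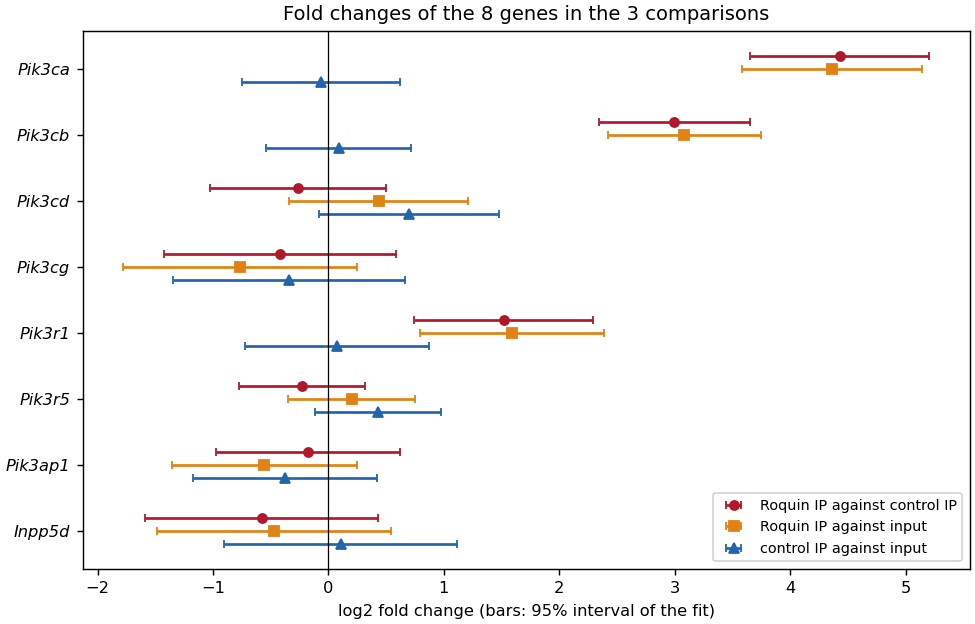
Log2 fold change of each of the 8 genes for Roquin IP over control IP, Roquin IP over input and control IP over input, with 95% intervals from the edgeR fit of all 9 libraries. Pik3ca, Pik3cb and Pik3r1 lie to the right of 0 in both comparisons with Roquin IP (4.43, 2.99 and 1.52 over control IP), and every interval of control IP over input includes 0.

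The calls of the 5 other genes depend on the scaling. With TMM the median log2 of all genes was -0.12 over control IP and -0.01 over input. With library size alone it was -0.96 and -0.76, and the cause of this shift was not tested. On that scale all 5 were called lower over control IP (log2 -0.99 to -1.36, with Pik3ap1 nearest to 0 and Inpp5d farthest), and Pik3cg, Pik3ap1 and Inpp5d were called lower over input (-1.55, -1.32 and -1.22). Over input, library size alone turned Pik3cd and Pik3r5 below 0 (-0.29 and -0.55), uncalled. Over all genes it called 257 higher and 3708 lower over control IP, and 259 higher and 2668 lower over input. Pik3ca and Pik3cb stayed called higher on either scale, with log2 values of 3.62 and 2.16 over control IP by library size alone.

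Levels were compared between genes per kilobase of the longest annotated transcript. In input Pik3r5 stood first at 54.8 ± 3.25 CPM per kb, apart from all others. Pik3ap1 (16.3), Pik3cg (12.4), Inpp5d (12.4), Pik3ca (8.81), Pik3cd (7.03) and Pik3cb (5.17) followed, each overlapping its neighbour, and Pik3r1 was last and apart at 2.10 ± 0.332. In control IP Pik3r5 was again first, at 73.9 ± 13.9 CPM per kb, and Pik3cb and Pik3r1 were again last. In Roquin IP Pik3ca led at 182 ± 62.1 CPM per kb, with all libraries above those of Pik3r5 at 63.0 ± 8.10. Pik3cb came next at 43.9 ± 10.2, overlapping Pik3r5. The remaining 5 genes lay between 6.37 and 11.2 CPM per kb, each overlapping its neighbour. Among the class IA catalytic genes, Pik3ca and Pik3cd overlapped in input (8.81 ± 1.99 and 7.03 ± 2.36) and in control IP (8.46 ± 2.17 and 11.4 ± 4.75), and in Roquin IP Pik3cd was at 9.50 ± 2.11 CPM per kb, with no overlap (SD, n = 3 each).

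**Figure D3:**
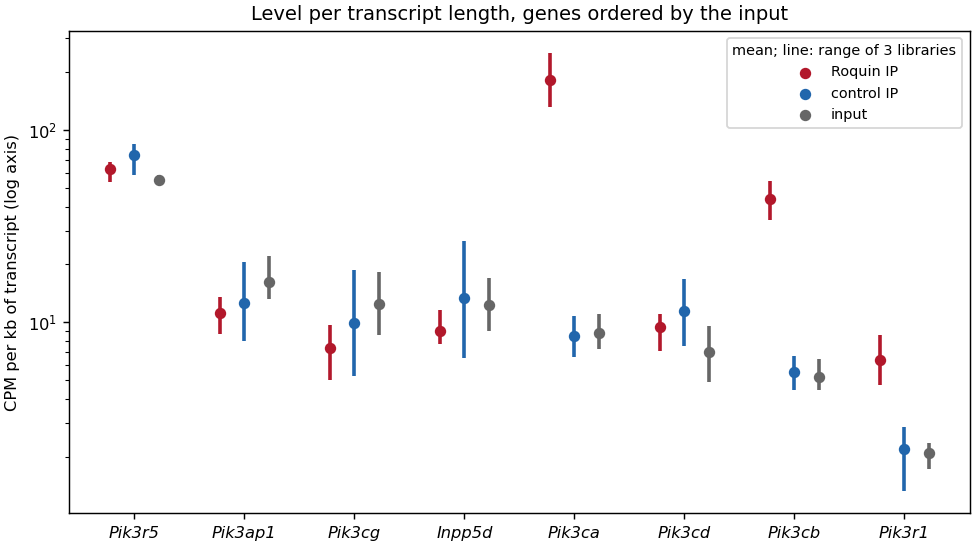
Mean level per kilobase of transcript (CPM per kb, log axis) of the 8 genes in each group, with lines from the lowest to the highest of 3 libraries. Pik3r5 is highest in control IP and input, and Pik3ca, at 182 CPM per kb, is highest in Roquin IP.

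Over the 9 libraries the genes whose log2 CPM followed Pik3ca most closely by Pearson's r included Nfkbiz (0.995), Ap1g1 (0.995), Nedd1 (0.993) and B630005N14Rik (0.992). Among the 8, Pik3cb (0.975) and Pik3r1 (0.898) lay close to it and the other 5 ranged from -0.218 (Pik3cg) to 0.166 (Pik3cd). These values describe 9 libraries in 3 groups, and a gene high in Roquin IP alone reaches a high r whatever its values within groups.

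The authors' deposited table gave ratios of Roquin IP to control IP of 21.7 for Pik3ca (p = 2.5e-05), 8.03 for Pik3cb (p listed as 0) and 2.96 for Pik3r1 (p = 0.3303). In the same authors' deposited table the ratios of Pik3ap1, Pik3r5, Pik3cd, Pik3cg and Inpp5d were 0.89, 0.86, 0.84, 0.75 and 0.67, and the deposited p-value was 1 for each. The order of the first 3 genes is the same in both analyses. Pik3r1 is the one gene of the 8 called here whose deposited p is above 0.05. No source used here says whether the deposited p-values were adjusted.

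The wider phosphoinositide pathway was read from 5 lists of 92 other genes, of which 91 were in the table and 79 passed the filter. Against control IP, 3 of the 79 were called higher and 0 lower (0 lower by DESeq2 too), a share of higher calls close to the 3.76% of all genes, with a median log2 change of -0.17 beside -0.12 for all genes. Sacm1l, the phosphatase of the endoplasmic reticulum and Golgi that removes the phosphate of PI4P, had 400.2, 486 and 465 CPM in Roquin IP, against 44.2, 55.7 and 40.2 CPM in the control libraries and 45.6, 62.1 and 46.1 CPM in the input libraries. Over control IP this was a log2 of 3.27 (SE 0.28; adjusted p = 3.94e-06 in edgeR). Pip5k1a, a kinase that makes PIP2, the substrate of class I PI3 kinases, had 561, 405 and 523 CPM in Roquin IP against 68.5, 79.4 and 67.1 in control IP, a log2 change of 2.79 (SE 0.28, edgeR adjusted p = 1.66e-05). Its paralog Pip5k1b had 145 ± 16.1 CPM in Roquin IP and 50.9 ± 10.4 in control IP (SD, n = 3 each; log2 1.51, SE 0.31, edgeR adjusted p = 0.00828). All 3 had every Roquin IP library above every control and input library. The Pip5k1b call was lost without control IP replicate 3 (adjusted p = 0.0501 in edgeR) and with library size alone (0.0906).

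**Figure D4:**
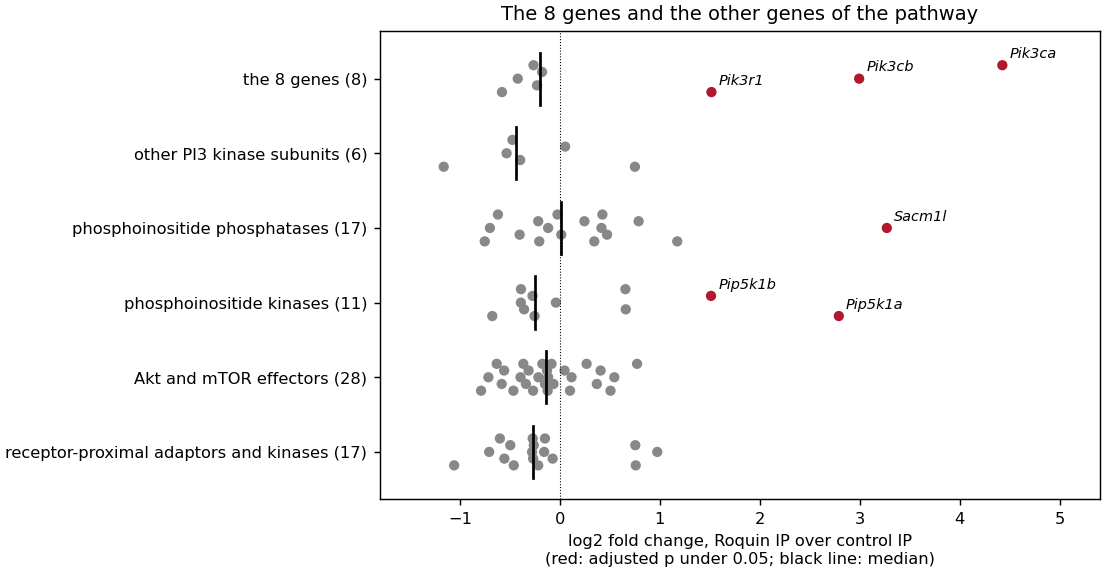
Log2 fold change of Roquin IP over control IP for the 8 genes and for the tested genes of each of the 5 pathway lists, 1 point per gene, with the number of genes in brackets and the list's median as a black line. Of the pathway lists only Sacm1l, Pip5k1a and Pip5k1b are called (red), at 3.27, 2.79 and 1.51, and the medians lie between -0.44 and 0.01.

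Of the other PI3 kinase subunits, 6 of 9 were tested and none was called in any comparison by the main edgeR fit. Between Roquin IP and control IP their log2 changes ran from -1.16 to 0.75. Pik3r2, the p85 beta subunit, had 23.5, 25.7 and 24.7 CPM in Roquin IP and 49.6, 33.5 and 24.5 CPM in control IP, a log2 change of -0.53 (interval -1.40 to 0.33). Pik3c2a, a class II enzyme, was at 52.5 ± 10.5 CPM in Roquin IP and 117 ± 38.9 CPM in input (SD, n = 3 each, with log2 -1.16 and edgeR adjusted p = 0.105). It was called lower than input in edgeR with the replicate number as a block (-1.13, adjusted p = 0.0147) and with no filter (0.0112). The same call came with only the 6 libraries compared (0.0330), without control IP replicate 1 (0.0227) and with library size alone (0.0030). Control IP was at 69.3 ± 46.0 CPM, and Roquin IP differed from it by a log2 of -0.40 (interval -1.28 to 0.48). Without control IP replicate 1, control IP was also called lower than input for this gene (-1.45, edgeR adjusted p = 0.0453).

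Of 17 tested phosphatases, 1 was called higher over control IP (Sacm1l), with a list median of 0.01. All 11 phosphoinositide kinases were tested, and 2 were called over control IP. Pip4k2a, one of the 2 with the highest mean CPM over all 9 libraries, had a log2 change of -0.39 (SE 0.29).

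In the main edgeR fit, 28 Akt and mTOR effectors and 17 receptor-proximal adaptors and kinases were tested. None was called between Roquin IP and control IP. Akt1 and Pdpk1, the kinases that PIP3 brings together at the membrane, had log2 changes of -0.21 (interval -0.83 to 0.40) and -0.13 (-0.72 to 0.46). Grb2, an adaptor of growth factor receptors, was at -0.50 (-1.03 to 0.04) and Ptpn11, the SHP-2 phosphatase, at -0.28 (-0.83 to 0.28).

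Against input, 6 of the 79 were called higher and 1 lower, beside 5.45% higher and 2.79% lower among all genes, so neither count is read as particular to the pathway. Sacm1l, Pip5k1a and Pip5k1b were among the 6, at log2 3.13, 2.57 and 1.17 (edgeR adjusted p = 7.00e-06, 3.40e-05 and 0.0309). The other 3 were Pi4k2a, which makes PI4P (1.57, adjusted p = 0.0194), the Akt substrate kinase Gsk3a (1.26, 0.0282) and Akt2 (1.11, 0.0215). These 3 were not called over control IP, where their log2 changes were 0.66, 0.51 and -0.39. Akt2 was also called higher in control IP than in input (2.83-fold, edgeR adjusted p = 0.0243), with 32.1 ± 5.38 CPM in input and 91.0 ± 6.13 CPM in control IP (SD, n = 3 each). That call was lost in edgeR with only the 6 libraries compared (adjusted p = 0.0757) and without control IP replicate 2 or 3 or any 1 of the input libraries (0.0549 to 0.110). Ptpn6, which encodes the SHP-1 phosphatase of inhibitory receptors, was called lower than input (-1.03, edgeR adjusted p = 0.0249). Its level was 178 ± 37.8 CPM in input and 87.1 ± 7.18 in Roquin IP, with 105 ± 9.88 for the beads-only control. That control was also below input for Ptpn6 (log2 -0.77), uncalled in the main fit. DESeq2 (-0.80, adjusted p = 0.0303) and edgeR with the replicate block (-0.76, 0.0325) did call it lower. Roquin IP over control IP was uncalled for Ptpn6, at -0.26 (interval -0.81 to 0.29). The calls over input of Pip5k1b, Pi4k2a, Gsk3a, Akt2 and Ptpn6 were each lost on leaving out any 1 of several libraries. The direction of change stayed the same in each of these fits. That of Pip5k1b was lost without any 1 of the 3 Roquin IP libraries or without input replicate 2 or 3. That of Pi4k2a was lost without Roquin IP replicate 1 or input replicate 1 or 2, and that of Gsk3a without Roquin IP replicate 1 or 3 or input replicate 1 or 2. The Akt2 call was lost without replicate 1 or 3 of either group, and the Ptpn6 call without any 1 of the Roquin IP libraries or input replicate 1. Library size alone also ended the calls of Pip5k1b, Pi4k2a, Gsk3a and Akt2 (log2 0.43, 0.83, 0.55 and 0.36). With the replicate number as a block, 4 genes were called lower than input (Ptpn6, Tyrobp, Pik3c2a and Btk), and 5 were called higher in control IP than in input (Ptpn11, Akt2, Pip5k1c, Grb2 and Dok2).

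The 3 genes called higher had the longest annotated 3' UTRs of the 8. Pik3ca had 5655 bases, Pik3r1 4317 and Pik3cb 3059, which are percentiles 97.2, 93.5 and 84.5 of the tested genes, and the other 5 had from 1184 (Inpp5d) to 2408 (Pik3cg) bases. Over the whole table, genes called higher over control IP also had longer 3' UTRs, with a median of 2008 bases for 359 genes against 1201 for 9422 tested genes. The AU-rich pentamer ATTTA, which a longer UTR can hold more often, occurred 11 times in Pik3ca, 8 times in Pik3r1, 7 times in Pik3cb, 4 times in Pik3cg and Pik3cd, once in Pik3ap1 and Pik3r5, and 0 times in Inpp5d. It was present in 71.5% of tested genes. Per kilobase of 3' UTR it was most frequent in the uncalled Pik3cd (2.72), followed by Pik3cb (2.29), Pik3ca (1.95), Pik3r1 (1.85), Pik3cg (1.66), Pik3r5 (0.625) and Pik3ap1 (0.521), against a median of 1.38 over tested genes.

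Set against 3' UTRs of like length, the 6-pair stem-loop in the 3' UTRs of Pik3ca and Pik3cb was common. The Pik3cb match shown above lies in coding sequence and was not compared by length. The 6-pair stem-loop of Pik3ca is of a kind held by 47.5% of the 528 tested 3' UTRs within 25% of its length, and that of Pik3cb, an AT repeat at chr9:99039116-99039130, by 32.2% of 1514. Over the whole table that stem-loop was in the longest 3' UTR of 49.0% of the genes called higher and 19.0% of all tested genes. A 5-pair stem with a loop of pyrimidine, purine, pyrimidine was in 61.6% of the called genes and 25.2% of all, but in none of the 8. The pattern TTCNNNGAA with any loop, in 36.6% of tested genes, occurred 4 times in Pik3cb and 2 times in Pik3r1 and in none of the other 6. Upstream of the 3' UTR the 6-pair stem-loop was in 13.7% of tested genes and 25.9% of those called higher; among the 8 it was in the coding sequences of Pik3cb, shown above, and Pik3r5, which was not called. Exons of the 8 genes overlap no exon of another gene in GENCODE M21.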

How the data were processed

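The deposited table gave raw read counts per gene for 9 libraries, and the authors' ratio of Roquin IP to control IP, p-value and CDE class, per the file headers. The submitters' processing notes name DESeq 1.8.3, BWA and CASAVA 1.8.2, in no stated role; no source used here gives the build, annotation or strand setting. The ratio's header says log2, but the deposited ratio is linear: 0 values were negative and 5508 of 5508 ratios of 1 or more matched ratios recomputed from the counts. The table's 7480 blank lines were left out.

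Counts were tested with edgeR 4.0.16 in R 4.3.3 (limma 3.58.1): TMM factors, filterByExpr with a minimum count of 10, glmQLFit and glmQLFTest on all 9 libraries with group as the only term, Benjamini-Hochberg over 9567 genes, threshold 0.05. The script was checked on simulated counts. Intervals come from the same fit. Alternatives were DESeq2 1.42.0, other scalings, no filter, 6 libraries only, a replicate block and leaving out each library. No replicates were duplicates: chi-square over degrees of freedom between them was 13.9 to 117.4.

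Replicate numbers, taken from the labels, paired the libraries: deviations from group means correlated from 0.152 to 0.580 between same-numbered libraries of different groups and from -0.433 to -0.0185 otherwise. Subtracting group means of 3 libraries by itself pushes the latter values down. The main fit left this pairing out. Over all genes the replicate block called 956 higher and 769 lower over input, against 521 and 267 in the main fit. Between control IP and input it called 636 higher and 553 lower, against 78 and 29.

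The 8 genes, the pathway lists, the markers and the motifs were chosen with earlier results of these data known. Of the pathway lists, the text names genes called in any comparison (at most 4 per list, direction and comparison) and the 2 with the highest mean CPM per list; Tyrobp, Btk, Pip5k1c and Dok2 were named after their values were seen. The genes most like Pik3ca are from the 5 with the highest Pearson r. Some genes that these rules select are not reported here. Site sequences and UTRs came from the GENCODE M21 transcripts (GRCm38), matched for 9475 of 9567 tested genes; 9422 had a 3' UTR of at least 30 bases.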

Additional observations from a re-analysis of the deposited data

How the results depend on the processing

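Of 69 single-gene results under 15 alternatives, 965 values kept their call and 70 changed it. The sign changed for 30 values, none of them of a result that was called, 11 of them with library size alone and 7 without control IP replicate 1. Of the 8 genes, 2 to 3 were called higher in either comparison with Roquin IP when 1 library was left out, and 0 lower; library size alone called 5 lower over control IP and 3 lower over input. For the 79 pathway genes against control IP, leaving out 1 library gave 2 to 5 higher, the 5 without control IP replicate 1, which added Synj1 and Pikfyve; library size alone called 40 lower against 0. Against input, 6 were called higher, 2 with library size alone and 2 to 7 on leaving out 1 library; 1 was called lower, 2 with DESeq2, no filter or the 6 libraries compared, 20 with library size alone and 0 to 3 on leaving out 1 library. Between control IP and input, 1 was called higher, 4 with DESeq2 or no filter, 0 with the 6 libraries and 0 to 1 on leaving out 1 library; 0 were called lower, 2 with DESeq2, 1 with no filter and 0 to 1 on leaving out 1 library. The replicate block called 4 lower against input, and 5 higher and 1 lower (Ptpn6) between control IP and input; it also called Synj1 over control IP and changed no other call of the 8 genes or the pathway genes. Over all genes it called 528 higher over control IP against 360, and library size alone called 257 higher and 3708 lower. The cause of these changes was not tested. The decay-element search gave 2 of the 8 genes with any loop and 2 with 6 pairs of any sequence, against 0; both were chosen after seeing the data. Depth limits the precision for Pik3r1, which had 31 to 426 reads a library.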

Other observations

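Sgk1, a kinase activated downstream of PI3 kinase, fell under the count filter with 113 reads over the 9 libraries, and was left out of the edgeR test; DESeq2, run without that filter, called it higher over control IP. Pik3ip1, an inhibitor of PI3 kinase at the cell surface, had 12 reads, Pik3c2b 1 read and Pik3c2g 0 reads, so their transcripts gave no usable level in any group. The adaptor genes Irs2 and Gab3 had 0 reads, and Irs1 and Gab1 had 4 reads each. All 91 pathway genes in the table carried the class "no CDE" in the authors' deposited table, the 3 enriched ones included.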
